A study of Homo sapiens with 4 samples.

Results

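The genes described here carry the signal from ATR, the kinase that senses stalled replication forks, to its effector kinase CHK1, in K562 cells given clofarabine. The members are the 10 rows of the deposited gene table named ATR, ATRIP, CHEK1, CLSPN, TOPBP1, TIMELESS, TIPIN, ETAA1, RAD9A and RAD17, out of 23615 genes in the table. The rows were taken by name, and the genes were chosen with earlier results of these data known. K562 is an established human leukaemia line with erythroid features that carries the BCR-ABL fusion and lacks functional p53. Of 4 RNA-seq libraries of total RNA, 2 came from cells treated for 3 h with 5 µM clofarabine in 0.005% DMSO (C0 and C1) and 2 from cells treated for 3 h with DMSO, the solvent (V0 and V1). Clofarabine is a purine nucleoside drug that, once phosphorylated in the cell, blocks ribonucleotide reductase and DNA chain elongation, and so slows replication forks. The table names its conditions by the letters C and V, read here as clofarabine and vehicle, a reading no label spells out, and with the letters the other way round each direction below would turn. The labels do not say whether libraries of a group came from separate cultures, so the p-values reflect only the scatter among these 4 libraries, which may be technical.

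When a replication fork stalls, single-stranded DNA coated by RPA recruits ATR through its partner ATRIP. The clamp loader that contains RAD17 places the clamp of RAD9A, RAD1 and HUS1 on DNA, the clamp brings in TOPBP1, and TOPBP1 switches ATR on. ETAA1 binds RPA and activates ATR by a separate route. CLSPN (claspin), with the fork protection pair TIMELESS and TIPIN, then presents CHK1, the product of CHEK1, to ATR for phosphorylation, and active CHK1 restrains CDC25 phosphatases and new origin firing. These steps are changes of protein modification and position, which RNA levels do not measure.

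The promoters of 4 members are printed: CLSPN as the member that was called, TOPBP1 and TIPIN as the other members with a word for E2F factors near the start, and CHEK1, the effector kinase, as a member without one. Windows from 250 bases before to 50 bases after each start were taken from RefSeq (GRCh38.p14, another build than the hg19 of the expression table) and were found for all 10 members, 16 windows in all. They were searched on both strands for the E2F words TTTCCCGC, TTTCGCGC, TTTGCCGC and TTTGGCGC, for CCAAT, the core of NF-Y sites, and for TTTGAA, a core of the CHR element. Positions count from the transcription start as +1, with −1 the base before it. The stretches are printed 5′ to 3′ on the gene strand from position −120, and capitals mark E2F words and CCAAT on either strand, so that ATTGG is CCAAT on the other strand.
CLSPN, chr1:35769976-35770098, minus strand: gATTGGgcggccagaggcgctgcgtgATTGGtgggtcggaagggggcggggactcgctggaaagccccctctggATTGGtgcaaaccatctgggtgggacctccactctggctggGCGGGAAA
TOPBP1, chr3:133661941-133662061, minus strand: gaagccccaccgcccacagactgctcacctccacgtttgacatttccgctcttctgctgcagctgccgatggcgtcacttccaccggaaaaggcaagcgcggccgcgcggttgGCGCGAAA
TIPIN, chr15:66356686-66356805, minus strand: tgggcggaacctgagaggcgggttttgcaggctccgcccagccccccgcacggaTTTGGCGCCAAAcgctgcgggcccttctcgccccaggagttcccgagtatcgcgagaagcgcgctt
CHEK1, chr11:125626104-125626223, plus strand: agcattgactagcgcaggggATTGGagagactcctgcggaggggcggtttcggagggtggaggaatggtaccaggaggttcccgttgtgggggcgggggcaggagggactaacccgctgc

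The CLSPN window held TTTCCCGC on the reverse strand at positions −5 to 3, across the start itself, and 3 copies of CCAAT that began at positions −119, −94 and −46. In TOPBP1, TTTCGCGC lay on the reverse strand at positions −7 to 1 and no CCAAT was found. In TIPIN, TTTGGCGC stood on the forward strand at positions −66 to −59 and on the reverse strand at positions −62 to −55, which overlap in a palindrome, in 1 of its 2 windows. The remaining TIPIN window, at chr15:66386668-66386967, held CCAAT and none of the E2F words. CHEK1 is printed from its window at chr11:125625974-125626273, and none of its windows held an E2F word. Another CHEK1 window, at chr11:125626106-125626405, held CCAAT that began at −232, −26 and −12 from its own start. The CHEK1 windows overlap, and the copy at −232 is the copy printed above, which began at −100 in the printed window. Every CHEK1 window held that copy, so the share of CCAAT by window below counts it more than once. At least 1 E2F word was present in 3 of the 16 member windows and in 3.31% of all 35116 windows, and by gene in 3 of 10 members and in 3.99% of 27305 genes. Taken singly, TTTCCCGC occurred in 1.63% of all windows, TTTCGCGC in 0.515%, TTTGGCGC in 0.652% and TTTGCCGC, found in no member, in 0.607%. CCAAT was present in 12 of the 16 member windows and in 34.6% of all windows, and by gene in 8 of 10 members and in 39.7% of genes. TTTGAA was found in 1 of the 16 member windows, that of RAD17, and in 15.2% of all windows, and by gene in 18.2% of genes. A matched word is a description of the letters and shows no binding.

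Estimated fragment counts summed to between 8370550 and 23888755 per library, and both clofarabine libraries were deeper than both DMSO libraries. The 7 K562 markers analysed here (HBG1, HBG2, HBE1, HBZ, GATA1, KLF1 and TAL1) were above 1 FPKM (fragments per unit of transcript length, scaled between libraries) in every library. Their summed levels, mostly globin, were 47934 to 51582 in DMSO and 46361 to 54980 in clofarabine. HBZ, GATA1 and KLF1 were lower in both clofarabine libraries than in both DMSO libraries, and the groups overlapped for HBG1, HBG2, HBE1 and TAL1. On scaled counts the groups did not overlap in 43.2% of all tested genes. Of 8 markers of other cell types, CD2, MS4A1 and KRT5 were listed at 0 in all libraries and only EPCAM was above 1 FPKM in all 4. The summed level of those 8 was 46.0 to 48.1 FPKM in DMSO and 47.5 to 48.9 in clofarabine. By edgeR's quasi-likelihood test 302 of 11761 genes, 181 higher and 121 lower in clofarabine, had an adjusted p under 0.05 and were called. The split was 170 and 200 with library sizes as the only scaling, and 273 and 102 after removal of a smooth length trend from each library.

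All 10 members were expressed well enough to be tested, and 1 of them, CLSPN, rose after clofarabine, against a background of 2.57% of all genes called (1.54% as higher and 1.03% as lower). The other 9 were not called. DESeq2 (1.78% of all genes called) and limma-voom (2.52%) called CLSPN alone among the members too. No member fell by edgeR, DESeq2 or limma-voom. At an unadjusted p under 0.05, 2 members (CLSPN and TIPIN) were higher, beside 8.17% of all genes, and 0 were lower, beside 6.06%. The log2 fold change was positive for 6 members and negative for 4, with a median of 0.037 beside 0.0020 for all tested genes. The members' median was −0.012 without C0, beside −0.0046 for all tested genes, and 0.095 after removal of the length trend, beside 0.046. In CPM (counts scaled to a common library size with TMM factors), 5 members had no overlap between clofarabine and DMSO, beside 43.2% of all tested genes, so 5 of 10 is near the background. In a bulk sample, more RNA per cell and more cells of a kind that carries the RNA cannot be told apart.

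**Figure D1:**
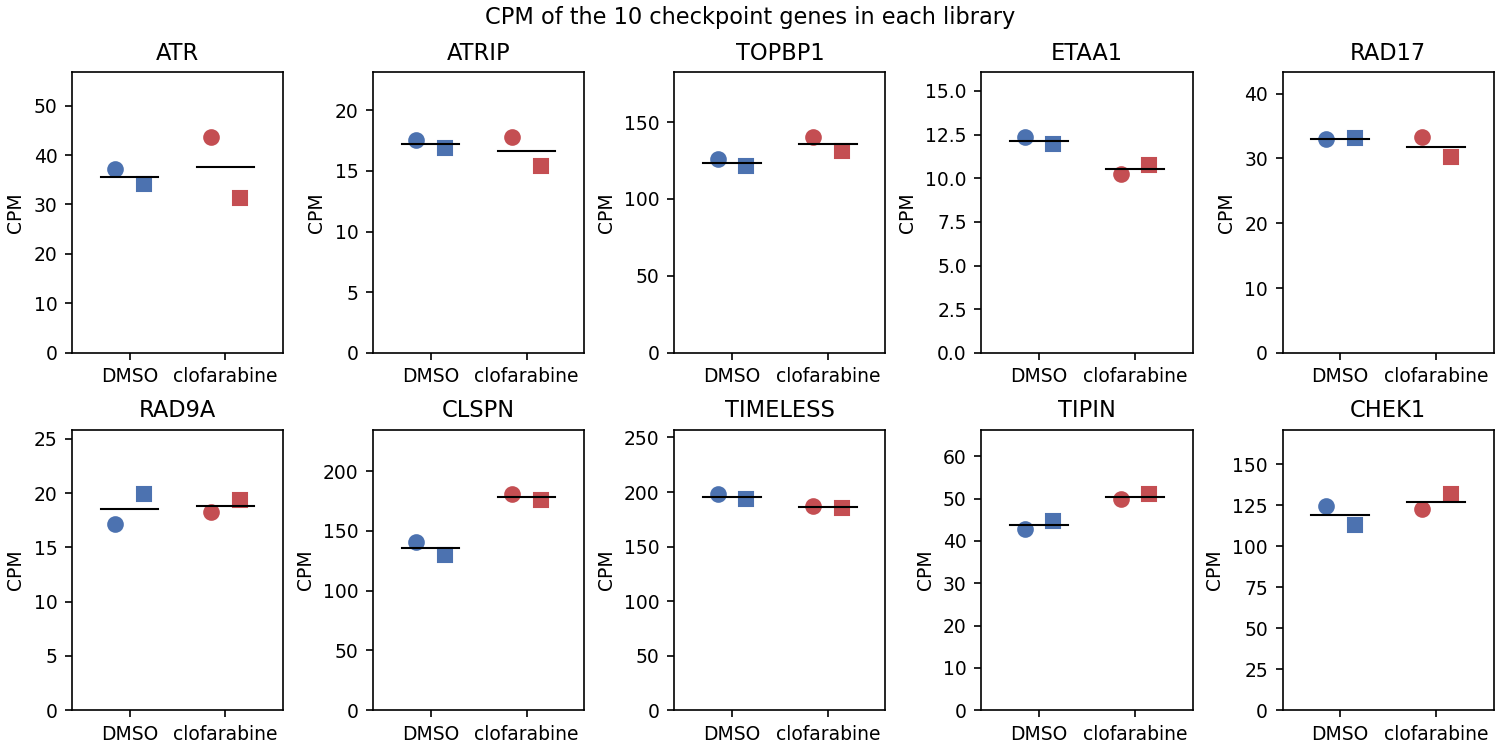
CPM of each of the 10 genes (vertical axis, from 0) in the DMSO libraries (blue) and the clofarabine libraries (red); circles are V0 and C0, squares V1 and C1, and the line is the group mean. CLSPN stands at 129.6 and 141 CPM in DMSO and 176 and 181 in clofarabine, while the ATR values of C0 and C1 lie on either side of both DMSO values.

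CLSPN encodes claspin, the adaptor that binds CHK1 once it is phosphorylated in a manner that depends on ATR. It measured 141 CPM in V0, 129.6 in V1, 181 in C0 and 176 in C1, from 1199 to 4057 fragments. Both clofarabine libraries lay above both DMSO libraries, and the distance between the groups exceeded the distance between libraries of a group. CLSPN rose from 135 ± 8.18 (SD, n = 2) to 178 ± 3.68 CPM, a 1.32-fold change (95% interval 1.19 to 1.45; log2 0.40, SE 0.069; adjusted p = 0.00167 by edgeR). The call was lost without V1 (log2 fold change 0.33, edgeR adjusted p = 0.126; 1.08% of all genes called), by limma on log2(FPKM + 1) (adjusted p = 0.136; 0.476% called) and on log2(FPKM + 0.1) (adjusted p = 0.124; 0.612% called), while the log2 fold change stayed between 0.33 and 0.47 over the 13 alternatives. In GENCODE 29, 5.63% of the exon bases of CLSPN are shared with an antisense gene on the opposite strand, and whether the counting used strand is not stated in these sources.

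TIPIN and TIMELESS form the fork protection complex that travels with the replisome and keeps claspin at the fork. For TIPIN the values were 42.9 CPM in V0, 44.7 in V1, 49.8 in C0 and 51.0 in C1. For TIMELESS they were 198 in V0, 194 in V1, 187 in C0 and 185 in C1. The groups did not overlap in either gene, with clofarabine above DMSO for TIPIN and below it for TIMELESS. The log2 fold change of TIPIN was 0.20 (95% interval 0.016 to 0.39, edgeR adjusted p = 0.305). That of TIMELESS was −0.073 (95% interval −0.21 to 0.061, edgeR adjusted p = 0.689). Neither was called, and the TIMELESS interval runs from 0.865-fold to 1.04-fold.

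CHEK1 encodes CHK1, the effector kinase. It stood at 125 CPM in V0, 113 in V1, 123 in C0 and 132 in C1, so that C0 lay between the DMSO libraries. The log2 fold change was 0.10 (95% interval −0.053 to 0.26, edgeR adjusted p = 0.606). CHEK1 was thus not called, and its interval allows anything from a 0.964-fold to a 1.20-fold level. It was measured from 1059 to 3046 fragments per library, about as many as TOPBP1.

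The proteins that switch ATR on are TOPBP1 and ETAA1. TOPBP1 measured 126 CPM in V0, 121 in V1, 140.3 in C0 and 131 in C1. ETAA1 measured 12.4 in V0, 12.0 in V1, 10.3 in C0 and 10.8 in C1, from 105 to 249 fragments. Clofarabine lay above DMSO for TOPBP1 and below it for ETAA1, without overlap. The log2 fold change of TOPBP1 was 0.13 (95% interval −0.013 to 0.28, edgeR adjusted p = 0.414). That of ETAA1 was −0.20 (95% interval −0.54 to 0.13, edgeR adjusted p = 0.648), the widest interval among the members. Neither activator was called.

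ATR is the apical kinase and ATRIP the subunit that ties it to RPA-coated DNA. ATR stood at 37.2 CPM in V0, 34.1 in V1, 43.6 in C0 and 31.4 in C1. The DMSO values lay between those of the clofarabine libraries, whose counting intervals (exact Poisson, 95%, counting error only) were 40.2 to 47.3 CPM for C0 and 29.1 to 33.7 for C1. Libraries of the same treatment thus differed by 0.48 on the log2 scale, more than counting error gives, and a gap as large between C0 and C1 was seen in 0.510% of the 2155 tested genes within 0.5 log2 CPM of the level of ATR. ATR is in the class of longest transcripts of 10 classes of length, in which the median log2 ratio of C0 to C1 was 0.089, and the part of length in the ATR gap was not tested. With all libraries ATR had a log2 fold change of 0.059 (edgeR adjusted p = 0.905), −0.18 without C0, 0.29 without C1 and −0.013 without V1.

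ATRIP measured 17.5 CPM in V0, 16.9 in V1, 17.8 in C0 and 15.4 in C1, and the groups overlapped. Its log2 fold change was −0.060 (95% interval −0.36 to 0.24, edgeR adjusted p = 0.912), and it was 0.047 without C1. In GENCODE 29, 29.6% of the exon bases of ATRIP are shared with TREX1, an exonuclease gene on the same strand, so the division of fragments between them is uncertain. ATRIP was the only member whose estimated count was not whole in a library. TREX1 itself had 14 to 47 fragments per library beside the 149 to 356 of ATRIP, and both counts rest on the same uncertain division.

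RAD17 loads the clamp and RAD9A is the clamp subunit whose tail binds TOPBP1. RAD17 was at 33.0 CPM in V0, 33.1 in V1, 33.3 in C0 and 30.2 in C1. RAD9A was at 17.2 in V0, 19.9 in V1, 18.2 in C0 and 19.3 in C1. The groups overlapped in both genes. The log2 fold change of RAD17 was −0.062 (95% interval −0.29 to 0.16, edgeR adjusted p = 0.874) and that of RAD9A was 0.016 (95% interval −0.27 to 0.30, edgeR adjusted p = 0.982). The direction of RAD9A turned without C1 (−0.034) and without V0 (−0.077), and that of RAD17 without C1 (0.0091). With library sizes alone RAD9A was at −0.021, above the median of all tested genes, which was −0.035 on that scaling. Exons of RAD9A share 10.7% of their bases with PPP1CA, and those of RAD17 share 5.36% with AK6 and TAF9, all on the opposite strand.

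**Figure D2:**
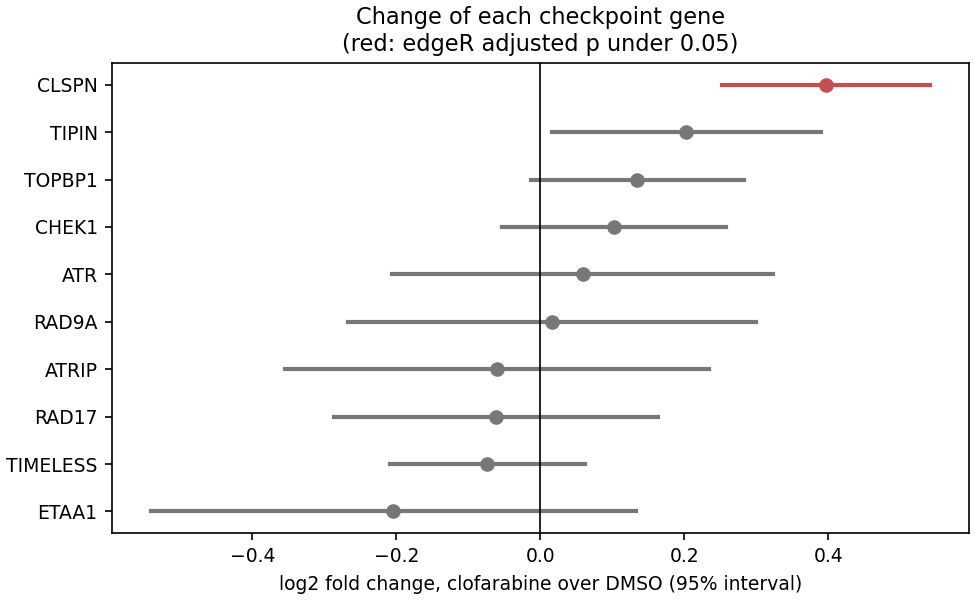
Log2 fold change of clofarabine over DMSO (horizontal axis) for each gene, with its 95% interval from edgeR; red marks an adjusted p under 0.05. CLSPN is the called gene, at 0.40, and the intervals of the others reach 0 or, for TIPIN, come within 0.016 of it.

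Levels were compared between genes only on the FPKM scale, which divides by transcript length. The order of the mean level over the 4 libraries ran from TIPIN (42.5 FPKM) through CHEK1 (40.02), TIMELESS (37.7), TOPBP1 (24.6), CLSPN (18.4), RAD17 (12.2), RAD9A (9.55), ATRIP (6.88) and ATR (4.43) to ETAA1 (3.58). TIPIN, CHEK1 and TIMELESS overlapped in range with their neighbours in this order and so could not be ranked. The ranges of ATR and ETAA1 over all libraries also overlapped. Within each library ATR was above ETAA1, most narrowly in V1 (4.12 and 3.77) and C1 (3.79 and 3.40). The ranges of the other neighbours did not overlap. TIPIN stood above 80.9% of all tested genes and ETAA1 above 28.4%. The effector kinase and the fork protection pair were thus measured at several times the level of ATR and ATRIP per transcript length.

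**Figure D3:**
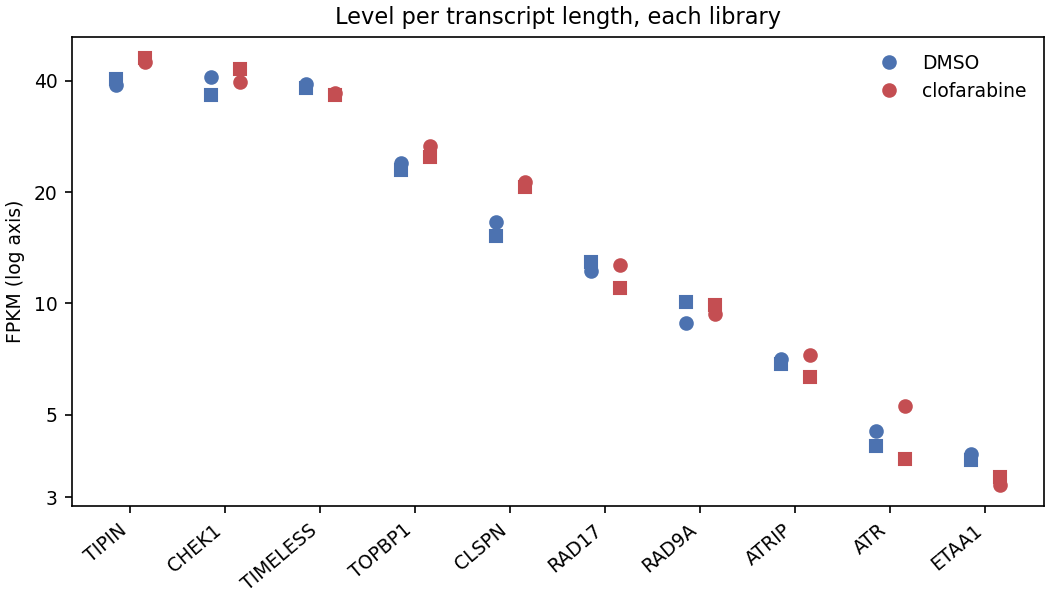
FPKM on a log axis for each gene in each library, ordered by the mean; blue is DMSO, red clofarabine, circles V0 and C0, squares V1 and C1. Levels run from about 46.0 FPKM for TIPIN in C1 to 3.24 for ETAA1 in C0, and CLSPN is the gene whose groups stand farthest apart.

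Ratios of FPKM within a library compare partners with the library scaling removed. The ratio of CLSPN to CHEK1 was 0.407 in V0, 0.417 in V1, 0.536 in C0 and 0.481 in C1, higher in both clofarabine libraries. That of TIPIN to TIMELESS was 0.991 in V0, 1.06 in V1, 1.22 in C0 and 1.26 in C1, again without overlap. TOPBP1 to ETAA1 gave 6.10 in V0, 6.07 in V1, 8.20 in C0 and 7.30 in C1. ATRIP to ATR ranged from 1.37 to 1.67 and RAD17 to RAD9A from 1.11 to 1.38, with the groups overlapping. The groups thus did not overlap in 3 of 5 ratios. For TIPIN to TIMELESS and TOPBP1 to ETAA1 this follows from the single genes, which lay apart in opposite directions. The 43.2% of all tested genes without overlap is a share of single genes in CPM, and no such share was computed for ratios. With 2 libraries a group, the smallest p that an exact permutation test can give is 0.333, so that test could call none of these ratios. No other test was run on the ratios, and of the genes in them only CLSPN was called singly.

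**Figure D4:**
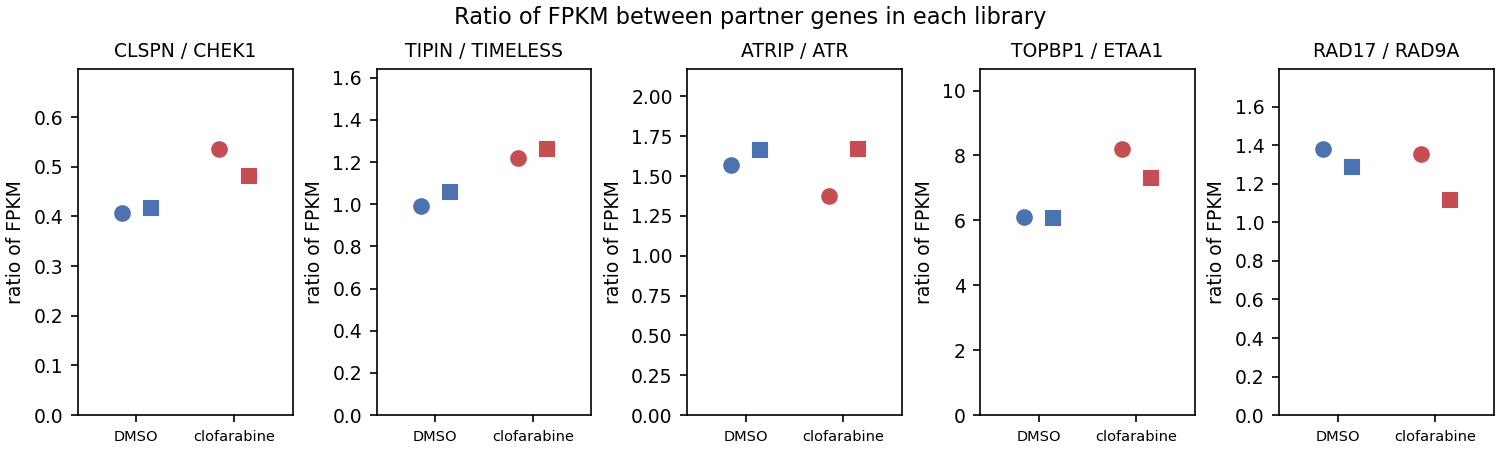
Ratio of FPKM between partner genes (vertical axis, from 0) in each library, DMSO in blue and clofarabine in red, circles V0 and C0, squares V1 and C1. The groups do not overlap for CLSPN over CHEK1, TIPIN over TIMELESS and TOPBP1 over ETAA1, and they overlap for ATRIP over ATR and RAD17 over RAD9A.

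Around the 10 members, 6 lists of genes of the ATR to CHK1 pathway or linked to it held 82 genes, of which 79 were tested. Of the 79, 5 rose (beside 1.54% of all tested genes) and 3 fell (beside 1.03%). The median log2 fold change of the 79 was 0.029, beside 0.0020 for all tested genes. The counts for each list below stand beside the same shares, and in lists of 10 to 18 tested genes 1 call is too few to set against them. The lists were chosen with earlier results of these data known, so none of these counts tests for an excess. Among the clamp, its loader and RPA, which carry the upstream signal, RFC4, a subunit shared by clamp loaders, rose by 0.31 on the log2 scale (edgeR adjusted p = 0.0292) and the other 10 tested genes were not called. RAD1 and HUS1, the partners of RAD9A in the clamp, had log2 fold changes of 0.075 and −0.087. The list had a median of 0.079.

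Among 11 genes listed as CHK1 targets, direct or further downstream, 1 rose and 1 fell. CDC25A, the phosphatase that CHK1 marks for destruction, went from 130.5 and 139.8 CPM in V0 and V1 to 185 and 177 in C0 and C1 (log2 fold change 0.42, 95% interval 0.28 to 0.56, edgeR adjusted p = 8.4e-04). WEE1, the kinase that opposes CDC25 on CDK1, went from 119.9 and 128 to 93.3 and 94.1 CPM (log2 fold change −0.41, 95% interval −0.56 to −0.25, edgeR adjusted p = 0.00231). The list had a median of −0.084. The change of CDC25A stood beside 0.40 for CLSPN, and CDC25A, WEE1 and CLSPN each kept their direction in the 13 alternatives.

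Of 18 tested genes of claspin and CHK1 turnover, PLK1, the mitotic kinase that marks claspin for degradation, fell, and the others were not called. PLK1 stood at 228 and 246 CPM in V0 and V1 and at 135 and 143 in C0 and C1, a log2 fold change of −0.77 (95% interval −0.91 to −0.63), and it was called in all 13 alternatives (edgeR, DESeq2 or limma adjusted p of at most 0.00432). The list's median was 0.035. BTRC, the F-box protein that recognises claspin once PLK1 has marked it, had a log2 fold change of −0.067, and USP7, a deubiquitinase of claspin, one of 0.029, neither of them called.

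The replisome partners of claspin had 3 rises in 15 tested genes and a median log2 fold change of 0.062. MCM10, an activator of the replicative helicase, rose by 0.41 (SE 0.074, edgeR adjusted p = 0.00233), GINS2, a helicase subunit, by 0.30 (SE 0.075, edgeR adjusted p = 0.0354), and PCNA, the sliding clamp, by 0.27 (SE 0.064, edgeR adjusted p = 0.025), all on the log2 scale. CDC7, the kinase of origin firing, was at 0.062 and was not called. Of 14 genes of the ATM to CHK2 arm and the chaperones of these kinases, H2AX (H2AFX in the table), whose protein is phosphorylated around breaks and stalled forks, fell by 0.35 on the log2 scale (edgeR adjusted p = 0.00664) and the rest were not called, with ATM at 0.065, CHEK2 at −0.023 and a list median of −0.010. Among 10 other ATR substrates and fork partners, 0 were called by edgeR, DESeq2 or limma-voom. At an unadjusted p under 0.05, 1 was higher, beside 8.17% of all tested genes, and 1 was lower, beside 6.06%, which is near the background. The gene of smallest p in this list was CEP164 (log2 fold change −0.46, edgeR adjusted p = 0.189), and the list's median was 0.066.

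Leaving out V1 ended 6 of the 8 calls in these lists, those of RFC4 (edgeR adjusted p = 0.55), WEE1 (edgeR adjusted p = 0.0683), MCM10 (edgeR adjusted p = 0.156), GINS2 (edgeR adjusted p = 0.378), PCNA (edgeR adjusted p = 0.431) and H2AX (edgeR adjusted p = 0.254). Without C1 RFC4 (edgeR adjusted p = 0.0616) and GINS2 (edgeR adjusted p = 0.221) were not called, nor were GINS2 (edgeR adjusted p = 0.0816) and PCNA (edgeR adjusted p = 0.165) without V0. DESeq2 did not call RFC4 (DESeq2 adjusted p = 0.10) or GINS2 (DESeq2 adjusted p = 0.114). By limma on log2(FPKM + 1), PLK1 was the only 1 of the 8 that was called, and on log2(FPKM + 0.1) PLK1 and CDC25A were.

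**Figure D5:**
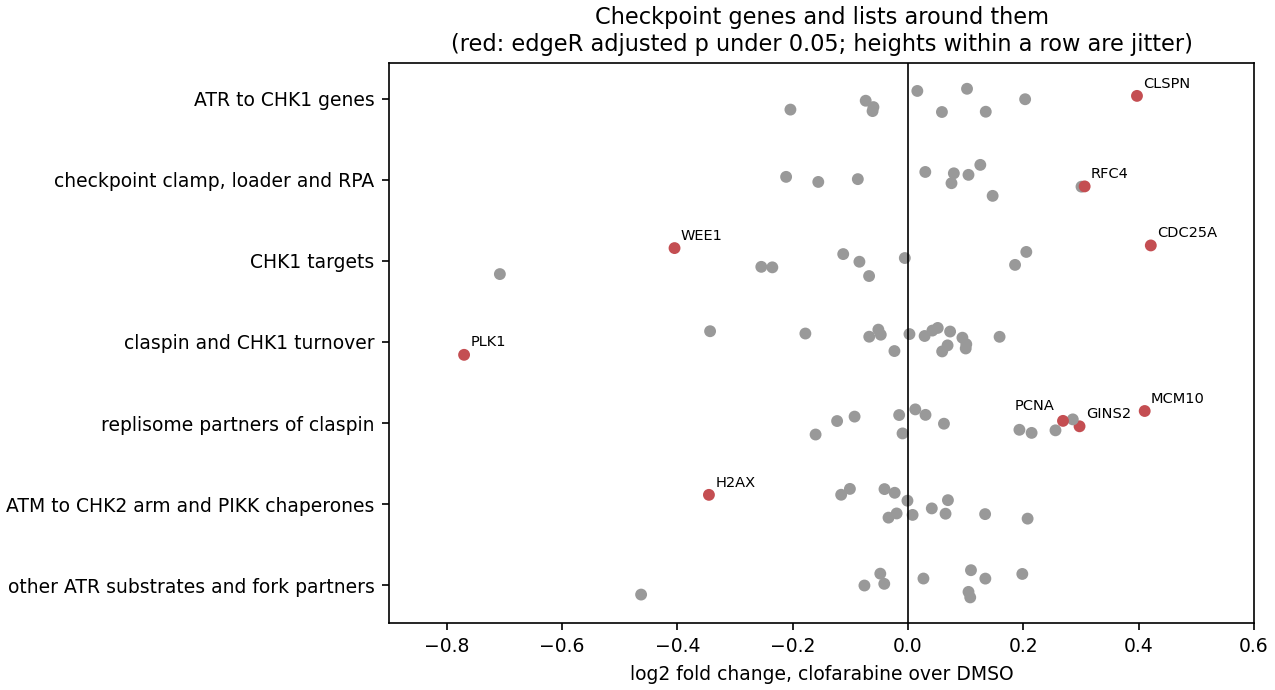
Log2 fold change of clofarabine over DMSO (horizontal axis) for every tested gene of the 10 members (top row) and of 6 lists around them; each point is a gene, red marks an edgeR adjusted p under 0.05, and height within a row has no meaning. The called genes lie between −0.77 (PLK1) and 0.42 (CDC25A), and most points lie near 0.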

How the data were processed

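RNA-seq of 4 K562 samples was analysed. Reads had been processed with cutadapt 1.5, TopHat2 2.0.13 and Cuffdiff 2.2.1 on build hg19, per the submitters' processing notes, which name no gene annotation or strand setting. The authors' deposited table holds estimated counts of fragments and, per the file headers, the authors' FPKM values, 1 per gene, condition and replicate. Libraries served only as members of their group, because which is replicate 1 or 2 of the labels is not given. Within each group counts differed by more than sampling noise (chi-square divided by its degrees of freedom 5.52 for the clofarabine pair, 2.45 for the DMSO pair), so none were combined.

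Estimated counts were rounded, filtered with filterByExpr (minimum count 10), scaled by TMM and tested by group alone in edgeR 4.0.16 under R 4.3.3, with Benjamini-Hochberg adjustment over 11761 genes. SE is the log2 fold change over the square root of F, and intervals use the fit's degrees of freedom. All 10 members are named, and from each list the called genes or, with none, that of smallest p. Genes named beyond this rule (RAD1, HUS1, BTRC, USP7, CDC7, ATM and CHEK2, and TREX1) were chosen for their roles. The members, lists and promoter words were chosen with earlier results of these data known. Alternatives were DESeq2 size factors, library size alone, no filter, DESeq2 1.42.0, limma-voom and limma-trend (limma 3.58.1), the table's replicate number as a block, removal of a length trend (loess, span 0.3), a threshold of 0.1 and leaving out each library, where the remaining sample of that group was taken to have the spread of the other. Applying them to the lists and to the members' median was chosen after seeing the data. A further marker of the line is not reported here.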

Additional observations from a re-analysis of the deposited data

How the results depend on the processing

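The count of members called stayed at 1 (CLSPN) in the alternatives other than log2(FPKM + 1) and log2(FPKM + 0.1) with limma, where it was 0, and leaving out V1; it ranged from 0 to 1 when each library was left out. The count over all genes was 478 with no filter, 166 with DESeq2, 56 on log2(FPKM + 1), 72 on log2(FPKM + 0.1), 466 at an adjusted p under 0.1 and 130 (without V1) to 636 (without C0) when libraries were left out. For the pathway lists together the count of 8 became 1 on log2(FPKM + 1), 2 on log2(FPKM + 0.1) and 2 to 12 when libraries were left out. With the replicate number as a block, 796 genes, 13 genes of those lists and 1 member were called. The deviations of libraries with the same number had a correlation of −0.0038 across genes. No label pairs the libraries, so the main fit does not treat them as pairs. Whether libraries of the same number shared a batch was not tested. Directions of uncalled members near 0 turned: leaving out libraries in turn gave ATR −0.18 to 0.29, ATRIP −0.16 to 0.047, RAD9A −0.077 to 0.12 and RAD17 −0.13 to 0.0091 on the log2 scale, and the cause was not tested. RAD9A was −0.021 with library sizes alone, a scaling that put the median of all tested genes at −0.035. CHEK1, CLSPN, TOPBP1, TIMELESS, TIPIN and ETAA1 kept their direction in all 13 alternatives. TIMELESS came nearest to 0, at −0.0020 after removal of the length trend, which put the median of all tested genes at 0.046. The order of levels was the same from counts per implied length, which is itself derived from the FPKM values. ETAA1 was measured from 105 to 249 fragments per library, and its interval reaches from 0.687-fold to 1.10-fold. The part of depth in the width of that interval was not tested.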
